A study of Mus musculus with 6 samples.

Results

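The genes described here encode the contractile machinery of striated muscle: 44 genes of the sarcomere, the Z-disc and the structures tied to it, out of 38918 genes listed in the deposited table. They were taken by symbol from a list, and all 44 were found. The list holds 13 genes of the thick filament and its M-band, 10 of the thin filament, 17 of the Z-disc, intercalated disc and desmin network, and 4 of sarcomere assembly and protein turnover. A mean of at least 1 FPKM (fragments scaled to transcript length and to the mapped fragments of a library) over the 6 libraries was reached by 42 of them, which entered the test, and Myom2 and Xirp2 stayed below it.

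A sarcomere is the unit of contraction, in which thick filaments of myosin pull on thin filaments of actin. Calcium starts the pull by binding troponin C, which moves the troponin and tropomyosin complex along actin. The Z-disc anchors the thin filaments at the ends of the unit and the M-band holds the thick filaments at its centre. Many parts exist as isoforms from separate genes, some used in atrium or ventricle, others in the fetal heart or after birth, and an embryonic heart carries several of them together.

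Whole hearts of C57/BL6 background mice were sequenced as RNA at embryonic day 11.5. The 3 control libraries came from littermates that carried Tie2 flox/wild-type, so the controls also had 1 floxed allele of the gene for the receptor Tie2, whose official symbol is Tek. The 3 conditional knockout libraries came from Nfatc1Cre:Tie2 flox/flox embryos, in which Nfatc1, a gene of the endocardium (the inner lining of the heart), drives Cre. Muscle cells are not the cells in which that driver is known to act, so the comparison asks how muscle transcripts stand when Tie2 is removed from the lining. Per the labels, RNA of 18 hearts of a genotype was combined and divided into its 3 replicates, so p-values measure the spread between libraries, which may be technical. Libraries of a genotype nevertheless differed, with summed liver markers at 5.75, 248 and 2.69 FPKM in the conditional knockouts, so the number of hearts per library is uncertain. Tek, the targeted gene, stood at 22.4, 25.7 and 16.6 FPKM in the controls and at 3.38, 3.13 and 3.13 FPKM in the conditional knockouts. Values of 3 libraries are given in the order of replicates 1, 2 and 3 throughout. The table gives no read counts, so the depth behind a value is unknown. FPKM summed to between 481334 and 582261 per library, and 12647 to 13041 genes reached 1 FPKM.

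Serum response factor binds the CArG box and drives many muscle promoters, which is why stretches holding that box are shown for 4 members whose values are given further on. Each runs 5′ to 3′ over the bases from 150 to 33 before the RefSeq transcription start on GRCm38.p6, with the CArG box in capitals. The bases nearer to the start were left out because annotated first exons of other transcripts reach into them.
Acta1 (chr8:123894808-123894925, minus strand): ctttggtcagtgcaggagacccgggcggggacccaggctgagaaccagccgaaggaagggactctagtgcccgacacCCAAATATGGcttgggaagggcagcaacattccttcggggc
Actc1 (chr2:114052908-114053025, minus strand): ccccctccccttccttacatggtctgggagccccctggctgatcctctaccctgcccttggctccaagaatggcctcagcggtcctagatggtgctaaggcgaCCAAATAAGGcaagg
Myl3 (chr9:110763528-110763645, plus strand): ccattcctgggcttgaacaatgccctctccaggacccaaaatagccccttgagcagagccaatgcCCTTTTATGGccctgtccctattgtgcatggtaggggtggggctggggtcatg
Myl7 (chr11:5898815-5898932, minus strand): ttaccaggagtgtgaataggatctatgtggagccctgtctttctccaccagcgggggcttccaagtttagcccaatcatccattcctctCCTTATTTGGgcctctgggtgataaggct
The box began 73 bases before the start in Acta1, 47 in Actc1, 85 in Myl3 and 61 in Myl7. These distances hold for the RefSeq start only. TATAAA, searched on either strand, began 7 bases before that start in Acta1 and 33 bases after it in Actc1. None of the 4 stretches overlapped an exon in GENCODE M21, and those of Actc1 and Myl3 lay in introns of longer transcripts of the same gene. On the opposite strand, the stretch of Acta1 lay in an intron of Gm20388 and that of Actc1 in introns of A530058N18Rik. RefSeq windows, which run from 250 bases before to 50 after a start, were given for 40 of the 44 members and not for Myom2, Tcap, Xirp1 and Trim55. On either strand, 8 of the 40 held a CArG box (20.0%), against 1.64% of 9258 tested genes and 1.63% of all 32851 windows. The other carriers were Myom1, Ldb3, Nebl and Fhl2. The site named for the Mef2 factors lay in 6 of the 40 (15.0%), Mybpc3, Ttn, Myoz2, Xirp2, Fhl2 and Synpo2l, against 2.32% of tested genes. CATTCC, the core bound by TEAD factors, lay in 16 of the 40 (40.0%) against 14.6%, and TATAAA, the TATA box, lay in 9 (22.5%) against 8.63%. MEF2 sites and TATAAA can share letters, and a match describes the letters in a window, not binding.

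The contractile genes were among the most abundant transcripts of these hearts. Myl2, the ventricular regulatory light chain, ranked 6th of the table by its mean of 6013 FPKM, and Actc1, cardiac actin, ranked 7th with 5686 FPKM. Myl7, Myl4 and Tpm1 followed with means of 3216, 2602 and 2287 FPKM. These 5 genes made up 61.3% to 64.0% of the summed FPKM of the members in each library. All 44 members together took 6.09%, 6.85% and 6.90% of the summed FPKM of the control libraries and 4.29%, 5.94% and 5.87% of the conditional knockout libraries, with no overlap between groups. The mean share was 6.61 ± 0.454% against 5.37 ± 0.936% (SD, n = 3 each), and the exact permutation test gave p = 0.1 (two-sided), the smallest it can give for 3 against 3. The denominator includes the embryonic globin genes Hbb-y and Hba-x, which are listed at 0 in every control and stand at 11128 FPKM or more in every conditional knockout. An exact 0 for such genes can be a failed estimate, and the summed FPKM of the groups overlap. With 8 erythroid genes left out of the sum, the shares were 6.25%, 7.04% and 7.03% in controls and 4.60%, 6.56% and 6.36% in conditional knockouts, which overlap (exact permutation test, two-sided, p = 0.3). Without conditional knockout replicate 1, p was 0.2 and 0.6 for these shares (exact permutation test, smallest possible value 0.2).

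Conditional knockout replicate 1 stood apart for these genes. It was the lowest of the 6 libraries for 37 of the 42 tested members (88.1%), against 22.0% of all tested genes, and was the highest for none of them, against 17.2%. The exceptions were Myh7b, Tnnt1, Pdlim5, Fhl2 and Acta1. Control replicate 1 was the lowest library for 26.4% of all tested genes and the highest for 28.4%. For the tested members these shares were 4.76% and 33.3%. Set against the control mean of each gene, the median member stood at 70.2% in conditional knockout replicate 1. It stood at 98.2% and 99.2% in the other conditional knockout libraries, and at 95.1%, 104% and 101% in the controls. The median of all tested genes stood at 97.0% in conditional knockout replicate 1. For this reason fold changes, group medians and ratios of the members are given with all libraries and without that one. Per the labels, the RNA of a genotype was combined before it was divided, so the standing of 1 library may also be technical. Such a difference, fewer muscle cells in a heart and less of these RNAs per cell cannot be told apart in bulk libraries.

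**Figure D1:**
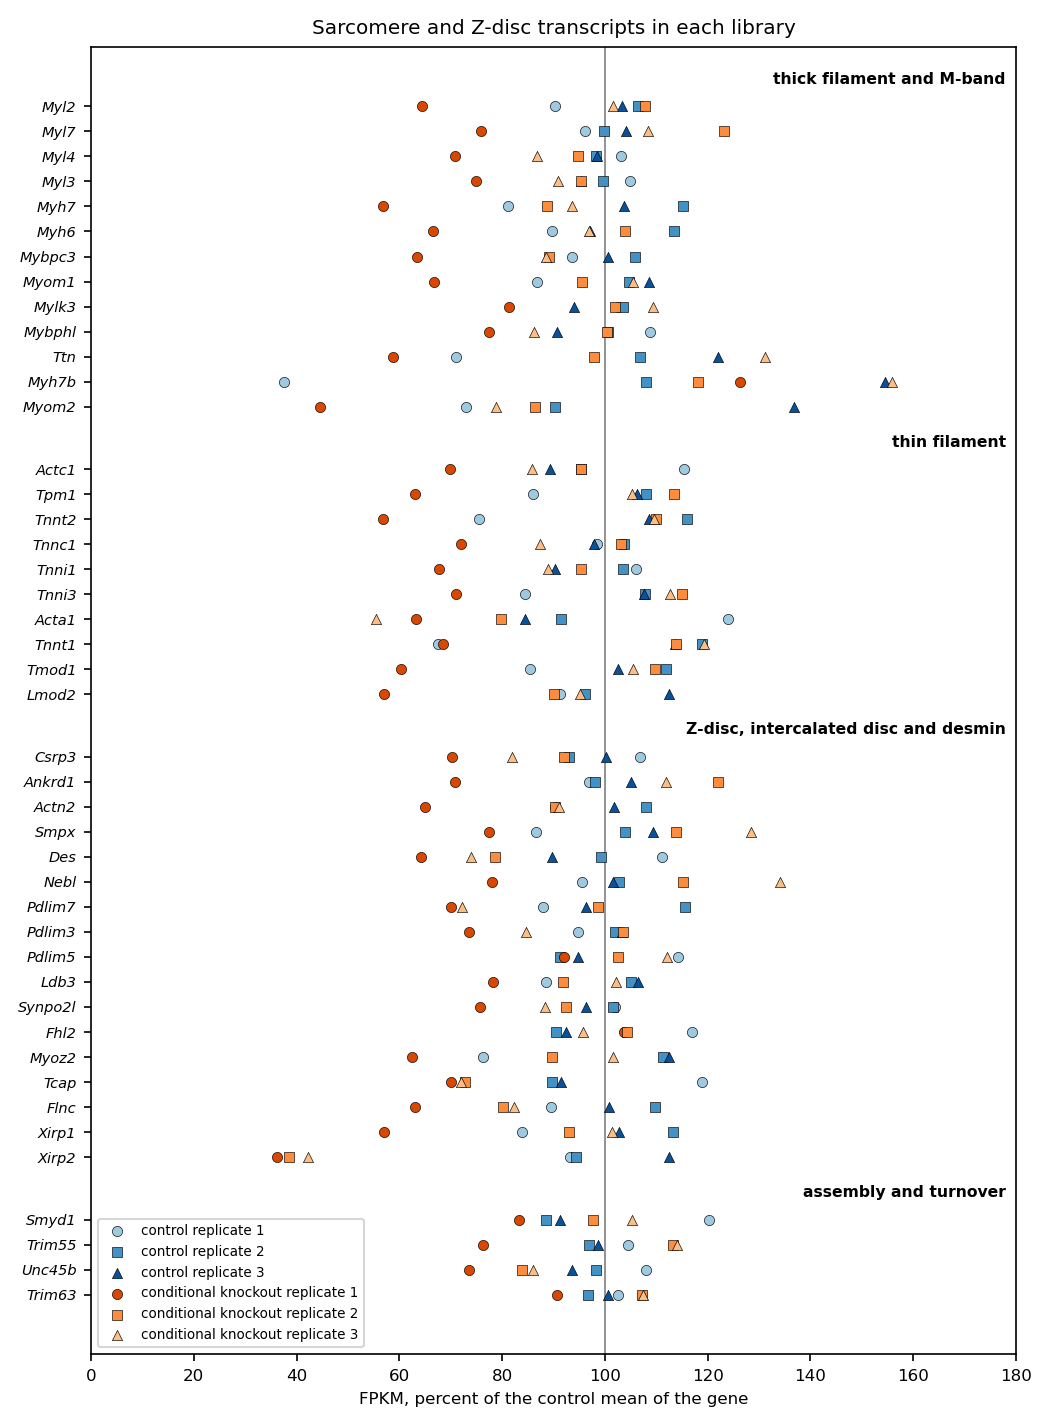
FPKM of each of the 44 members in each library (horizontal axis, percent of the control mean of that gene), with genes in rows by role and by falling control level, blue symbols for controls and orange symbols for conditional knockouts. The dark orange circles of conditional knockout replicate 1 lie left of the other symbols in most rows, with a median of 70.2% over the 42 tested members.

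Across all libraries, none of the 42 tested members passed the threshold of an adjusted p under 0.05 in limma, where 23 of 12988 genes did (0.177%). At an unadjusted p under 0.05 there were 5 lower members (background 4.37%) and 0 higher ones (background 2.31%). The estimate lay below 0 for 34 members and above 0 for 8, with a median log2 fold change of -0.18, beside a median of -0.01 and 53.2% below 0 over all tested genes. All 3 conditional knockout libraries lay below all 3 controls for 10 of 42 members (23.8%, background 8.17%) and above them for 0 (background 5.23%). Without conditional knockout replicate 1, 22 members lay below 0 (52.4%, against 51.6% of all tested genes) and 20 above, with a median of -0.04. No member passed the threshold there (background 0.0924%), 3 had an unadjusted p under 0.05 with lower values (background 4.25%) and 1 with higher values (background 2.56%), and the smallest adjusted p of a member was 0.714. By construction, the 10 members that lay below every control with all libraries do so here. They were the only ones (23.8%, background 14.5%). Above every control lay 7 members, Nebl, Smpx, Trim63, Tnni3, Ankrd1, Trim55 and Myl7 (16.7%, background 12.7%). Control replicate 1 is kept in that fit. In replicates 2 and 3 alone, 27 members lay below 0 (51.8% of all tested genes did) and 15 above, with a median of -0.06. There 10 members had an unadjusted p under 0.05 in limma (23.8%, against 11.1% of all tested genes), and 0 passed the threshold.

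**Figure D2:**
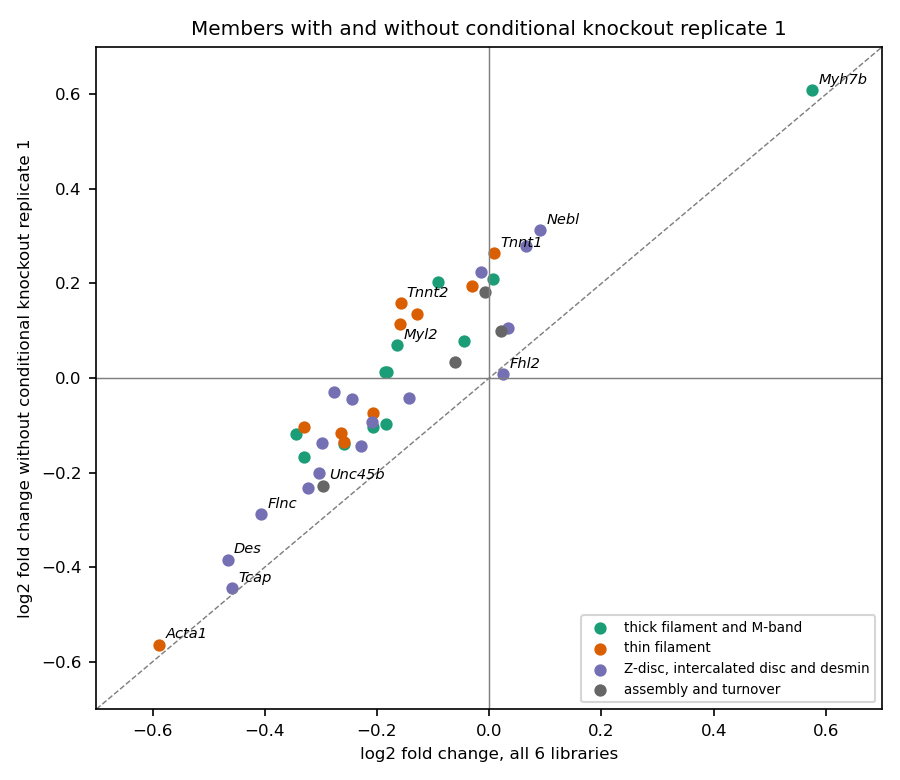
Log2 fold change of each of the 42 tested members with all 6 libraries (horizontal axis) and without conditional knockout replicate 1 (vertical axis), both conditional knockout minus control on the log2(FPKM + 1) scale, coloured by role; the dashed line marks equal values. Most points lie above the dashed line, and Acta1, Tcap and Des lie farthest below 0 on both axes.

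The contrast was also read between libraries that share a replicate number. Between the replicate 1 libraries, 40 of 42 members were lower in the conditional knockout, with a median of 73.1% of the control, where 55.7% of all tested genes were lower. Between the means of replicates 2 and 3, 26 of 42 were lower (51.6% of all tested genes), with a median of 95.5% and a range from 76.9% to 122%. Those 26 were also lower between the replicate 1 libraries (61.9% of members, 30.7% of all tested genes).

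In 10 tested members every conditional knockout library lay below every control, which also fixes the order without conditional knockout replicate 1. From the Z-disc and desmin network these were Tcap, Des, Flnc, Csrp3 and Synpo2l. The others were Acta1 of the thin filament, Mybpc3, Myl4 and Myl3 of the thick filament, and Unc45b of the assembly genes. Acta1, skeletal alpha-actin, which the fetal heart also makes, stood at 257, 189 and 175 FPKM in control libraries, against 131, 165 and 115 FPKM in the conditional knockout. Every conditional knockout library lay below every control, and replicate 3, not replicate 1, was the lowest. Its log2 fold change was -0.59 ± 0.19 (SE), with an adjusted p of 0.661 in limma, and -0.56 without conditional knockout replicate 1. Acta1 lies on chromosome 8 from 123891769 to 123894751 (GRCm38, minus strand). Des encodes desmin, the intermediate filament that links Z-discs to each other and to the cell membrane, and lies on chromosome 1 from 75360329 to 75368579. It stood at 282, 252 and 228 FPKM in control libraries, against 163, 200 and 188 FPKM in the conditional knockout, with replicate 1 the lowest. Its log2 fold change was -0.47 ± 0.13 (SE), with an adjusted p of 0.55 in limma, and -0.38 without that library. Tcap encodes telethonin, which caps titin at the Z-disc, and lies on chromosome 11 from 98383811 to 98384953. It stood at 58.0, 43.7 and 44.6 FPKM in control libraries, against a narrow 34.2, 35.5 and 35.1 FPKM in the conditional knockout. Its log2 fold change of -0.46 ± 0.13 (SE, limma adjusted p = 0.55) was nearly the same without conditional knockout replicate 1, at -0.44. None of these estimates passed the adjusted threshold.

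**Figure D3:**
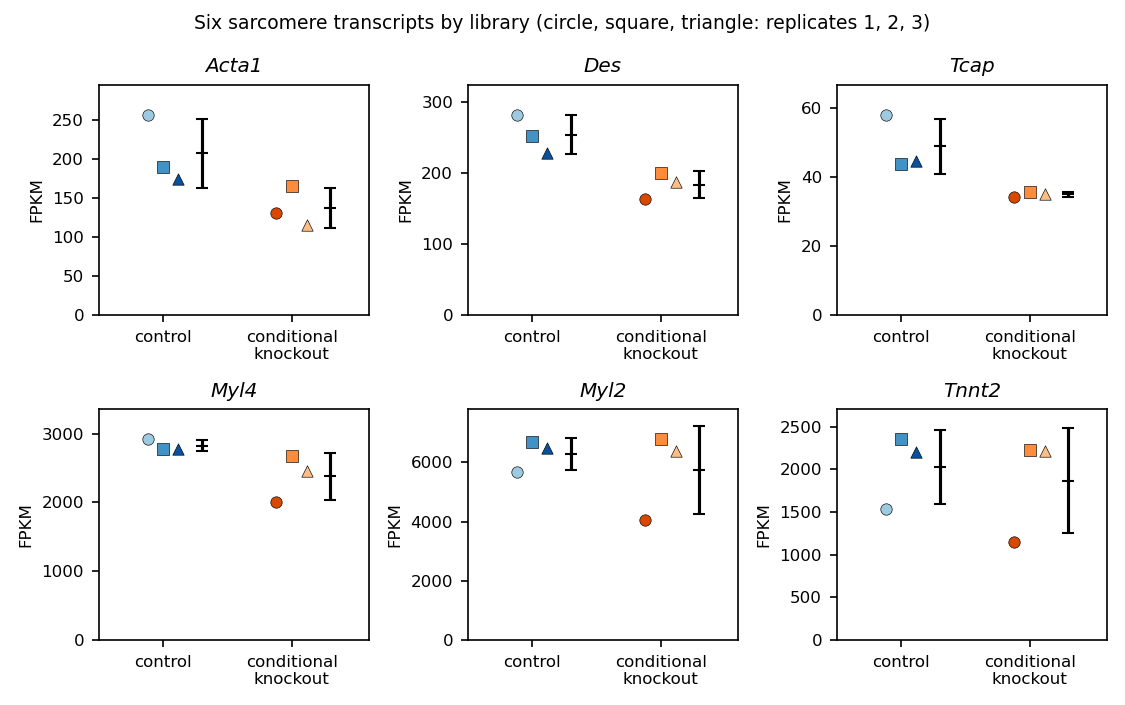
FPKM by library for 6 members (vertical axes from 0), with circles, squares and triangles for replicates 1, 2 and 3 of each group and bars for the mean and SD of 3 libraries. In Acta1, Des, Tcap and Myl4 all conditional knockout libraries lie below all controls, while in Myl2 and Tnnt2 conditional knockout replicate 1 lies low and replicates 2 and 3 lie among or near the controls.

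Among the 12 tested genes of the thick filament and M-band, 10 estimates lay below 0 and 2 above, with a median of -0.18, and of 0.01 without conditional knockout replicate 1. Myosin heavy chain is the motor, and its summed FPKM over Myh6, Myh7 and Myh7b was 1376, 1877 and 1669 in controls and 1002, 1553 and 1566 in conditional knockouts, which overlap. Myh6, the alpha chain that prevails in the adult mouse heart, stood at 547, 692 and 592 FPKM against 406, 635 and 592 FPKM. Myh7, the beta chain of the fetal ventricle, stood at 824, 1168 and 1053 FPKM against 578, 900 and 951 FPKM. The log2 fold changes were -0.18 ± 0.19 for Myh6 and -0.34 ± 0.23 for Myh7 (SE, limma adjusted p = 0.86 and 0.808), and 0.01 and -0.12 without conditional knockout replicate 1. Myh7b, a minor slow chain, stood at 5.72, 16.5 and 23.6 FPKM in control libraries, against 19.3, 18.0 and 23.8 FPKM in the conditional knockout, where control replicate 1 was the low library. Myh6 and Myh7 lie side by side on chromosome 14, from 54941921 to 54966927 and from 54970684 to 54994626, with very similar coding sequences. The antisense gene Mhrt overlaps Myh7, and the counting rule and strand setting are not stated, which leaves values of such genes uncertain. In all, 21 of the 44 members overlap a gene on the other strand in GENCODE M21.

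The myosin light chains were the most abundant part of the thick filament. Summed over Myl3 and Myl4, the essential light chains stood at 4117, 3917 and 3875 FPKM in control libraries, against 2857, 3770 and 3491 FPKM in the conditional knockout. These groups do not overlap, and the exact permutation test gave p = 0.1 (two-sided), its smallest value, and p = 0.2, again the smallest possible, without conditional knockout replicate 1. Myl4, the atrial essential chain that the fetal ventricle also makes, stood at 2917, 2777 and 2784 FPKM against 2001, 2680 and 2453 FPKM. Myl3, the ventricular essential chain, stood at 1200, 1139 and 1092 FPKM against 856, 1091 and 1039 FPKM. Log2 fold changes were -0.26 ± 0.14 and -0.21 ± 0.13 (SE, limma adjusted p = 0.798 and 0.808), and -0.14 and -0.10 without that library, so the separation in replicates 2 and 3 was by small margins. The regulatory chains did not separate. Myl2, of the ventricle, stood at 5679, 6693 and 6494 FPKM against 4047, 6777 and 6391 FPKM. Myl7, of the atrium and the early heart tube, stood at 3052, 3170 and 3310 FPKM against 2410, 3914 and 3441 FPKM. Their log2 fold changes were -0.16 ± 0.22 and 0.01 ± 0.19 (SE, limma adjusted p = 0.893 and 0.997), and both were above 0 without conditional knockout replicate 1, at 0.07 and 0.21.

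Of the proteins bound to myosin, Mybpc3, cardiac myosin-binding protein C, stood at 267, 302 and 287 FPKM in control libraries, against 181, 254 and 253 FPKM in the conditional knockout. All 3 lay below the controls, with a log2 fold change of -0.33 ± 0.16 (SE, limma adjusted p = 0.772) and of -0.17 without replicate 1. Mybphl, its atrial relative, stood at 40.4, 37.3 and 33.7 FPKM against 28.7, 37.3 and 32.0 FPKM, which overlap. The log2 fold change of Mybphl was -0.18 ± 0.13 (SE, limma adjusted p = 0.814), and -0.10 without conditional knockout replicate 1. Mylk3, the cardiac kinase of the regulatory light chain, stood at 83.3, 84.1 and 76.4 FPKM against 66.1, 82.8 and 88.9 FPKM. Ttn encodes titin, the giant spring that spans from Z-disc to M-band, and its FPKM was 12.5, 18.8 and 21.5 against 10.3, 17.2 and 23.1, so both replicate 1 libraries were the low ones. Myom1 encodes myomesin, which crosslinks thick filaments at the M-band, and stood at 106, 128 and 133 FPKM against 81.6, 117 and 129 FPKM. The log2 fold change of Myom1 was -0.18 ± 0.19 (SE, limma adjusted p = 0.855), and 0.01 without conditional knockout replicate 1. Myom2, the myomesin of mature fast muscle and heart, was near the floor of the table, between 0.306 and 0.574 FPKM in controls and between 0.187 and 0.362 FPKM in conditional knockouts.

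Of the 10 genes of the thin filament, 9 estimates lay below 0 and 1 above, with a median of -0.18, and of 0.02 without conditional knockout replicate 1. Actc1, the main actin of the heart, stood at 7145, 5902 and 5524 FPKM in control libraries, against 4329, 5904 and 5313 FPKM in the conditional knockout, which overlap. Its log2 fold change was -0.26 ± 0.17 (SE), with an adjusted p of 0.809 in limma, and -0.14 without conditional knockout replicate 1. Tpm1, the tropomyosin that lies along actin, stood at 2026, 2545 and 2504 FPKM against 1489, 2674 and 2484 FPKM, with both replicate 1 libraries lowest in their groups. Among the troponins, Tnnt2, the cardiac troponin T that anchors the complex on tropomyosin, stood at 1533, 2354 and 2204 FPKM against 1155, 2232 and 2223 FPKM. Again both replicate 1 libraries were the lowest of their groups, and the log2 fold change went from -0.16 ± 0.29 (SE, limma adjusted p = 0.935) to 0.16 without conditional knockout replicate 1. Tnnt1, the slow skeletal troponin T, stood at 130, 229 and 219 FPKM against 132, 220 and 230 FPKM, with a log2 fold change of 0.01 ± 0.28 (SE, limma adjusted p = 0.997) that was 0.26 without that library.

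Tnni1, the slow skeletal troponin I that is the fetal inhibitory subunit of the heart, stood at 1500, 1465 and 1276 FPKM in control libraries, against 957, 1348 and 1257 FPKM in the conditional knockout. Tnni3, the cardiac troponin I that replaces it with maturation, stood at 480, 613 and 612 FPKM against 404, 654 and 640 FPKM. For Tnni1 the log2 fold change was -0.26 ± 0.16 and for Tnni3 it was -0.03 ± 0.21 (SE, limma adjusted p = 0.808 and 0.989). Without conditional knockout replicate 1 the value of Tnni1 was -0.12, and both remaining libraries lay above every control for Tnni3, at a log2 fold change of 0.20. Tnni3 lies on chromosome 7 from 4518305 to 4524229 next to Tnnt1, from 4504570 to 4516382, and overlaps Dnaaf3 on its own strand. Tnnc1, the calcium-binding troponin C of heart and slow muscle, stood at 1543, 1626 and 1535 FPKM against 1129, 1618 and 1369 FPKM. At the pointed end of the filament, Tmod1, which caps it, stood at 57.2, 74.9 and 68.6 FPKM against 40.4, 73.5 and 70.6 FPKM. Lmod2, which lengthens it, stood at 42.2, 44.5 and 52.0 FPKM against 26.3, 41.6 and 44 FPKM, which overlap between controls and conditional knockout replicate 3.

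The 16 tested genes of the Z-disc, intercalated disc and desmin network held 12 estimates below 0 and 4 above, with a median of -0.24, and of -0.07 without conditional knockout replicate 1. Actn2, the alpha-actinin that crosslinks actin at the Z-disc, stood at 311, 372 and 351 FPKM in control libraries, against 224, 311 and 314 FPKM in the conditional knockout. The highest conditional knockout library lay just above the lowest control, and the log2 fold change was -0.30 ± 0.16 (SE), with an adjusted p of 0.789 in limma, and -0.14 without replicate 1. Flnc, filamin C, which crosslinks actin at Z-discs and the cell membrane, stood at 43.5, 53.3 and 49.1 FPKM against 30.6, 39.0 and 40.0 FPKM. All 3 of its conditional knockout libraries lay below the controls, with a log2 fold change of -0.41 ± 0.14 (SE, limma adjusted p = 0.682) and of -0.29 without replicate 1. Csrp3, the muscle LIM protein, stood at 438, 382 and 411 FPKM against 288, 378 and 336 FPKM. Its log2 fold change was -0.30 ± 0.13 (SE), with an adjusted p of 0.761 in limma, or -0.20 without that library, and its groups were separated only by the margin between 382 and 378 FPKM. Synpo2l, a partner of alpha-actinin and filamin, stood at 112, 112 and 106 FPKM against 83.5, 102 and 97.6 FPKM, also separated. The log2 fold change of Synpo2l was -0.23 ± 0.11 (SE, limma adjusted p = 0.772), and -0.14 without replicate 1.

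Pdlim3, Pdlim5, Pdlim7 and Ldb3 encode PDZ and LIM domain proteins of the Z-disc, and Fhl2 encodes one with LIM domains only. Pdlim7 stood at 119, 156 and 130 FPKM in control libraries, against 94.8, 133 and 97.7 FPKM in the conditional knockout, with a log2 fold change of -0.32 ± 0.17 (SE, limma adjusted p = 0.778), and -0.23 without replicate 1. Pdlim3 stood at 122, 132 and 133 FPKM against 94.9, 134 and 109 FPKM, and Ldb3, also called Cypher, at 103, 122 and 124 FPKM against 91.3, 107 and 119 FPKM. Pdlim5 stood at 136, 109 and 113 FPKM against 110, 122 and 134 FPKM, and Fhl2 at 82.0, 63.4 and 64.8 FPKM against 72.6, 73.0 and 67.1 FPKM. In all 5 genes the groups overlap. Nebl, the nebulin relative of the cardiac Z-disc, stood at 170, 183 and 181 FPKM against 139, 205 and 238 FPKM. Smpx, a small muscle protein, stood at 288, 346 and 364 FPKM against 257, 379 and 427 FPKM. Ankrd1, a stretch-responsive protein that binds titin, stood at 362, 366 and 392 FPKM against 264, 456 and 417 FPKM. In these 3 genes conditional knockout replicate 1 lay below every control while replicates 2 and 3 lay above every control. Myoz2, which tethers calcineurin to the Z-disc, stood at 46.7, 68.1 and 68.9 FPKM against 38.3, 54.9 and 62.2 FPKM, and Xirp1, of the intercalated disc, at 28.8, 38.9 and 35.3 FPKM against 19.6, 31.9 and 34.8 FPKM. Xirp2, its relative, was at 0.129, 0.131 and 0.156 FPKM against 0.0501, 0.0534 and 0.0587 FPKM, separated but too low to be tested.

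The assembly and turnover genes showed 3 estimates below 0 and 1 above, with a median of -0.03, and of 0.07 without conditional knockout replicate 1. Unc45b, the chaperone that folds the myosin head, stood at 67.1, 61.1 and 58.2 FPKM in control libraries, against 45.7, 52.2 and 53.5 FPKM in the conditional knockout. Its libraries did not overlap, with a log2 fold change of -0.30 ± 0.11 (SE, limma adjusted p = 0.742) and of -0.23 without replicate 1. Smyd1, a muscle methyltransferase needed for sarcomere assembly, stood at 198, 146 and 150 FPKM against 137, 160 and 173 FPKM. The ubiquitin ligases Trim55 and Trim63, known as MuRF2 and MuRF1, stood at 96.7, 89.6 and 91.3 FPKM against 70.5, 105 and 106 FPKM, and at 35.4, 33.4 and 34.7 FPKM against 31.2, 37.0 and 37.0 FPKM. Both ligases show the same order as Nebl, with replicate 1 below and replicates 2 and 3 above every control. Over the 19 tested members for which no single fold change is printed, estimates ran from -0.33 to 0.58, 13 below 0 and 6 above, with adjusted p between 0.808 and 0.996 (limma).

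Ratios between isoforms cancel what all muscle genes of a library share, and 8 were compared. The first 5 set an isoform of the mature heart against a fetal one or the reverse, apart from Myom2 to Myom1. That pair sets an M-band protein of mature muscle against myomesin. The ratio of Myh6 to Myh7 was 0.664, 0.592 and 0.562 in controls and 0.703, 0.705 and 0.623 in conditional knockouts, a log2 difference of 0.16 (exact permutation test, two-sided, p = 0.2), and of 0.13 without conditional knockout replicate 1 (exact p = 0.4). The ratio of Tnni3 to Tnni1, which climbs as the heart matures, was 0.320, 0.419 and 0.480 against 0.422, 0.485 and 0.509, a log2 difference of 0.23 (exact permutation test, p = 0.2). In this ratio the control libraries spread over a wider range than the difference between the means. Without conditional knockout replicate 1 the remaining 2 libraries lay above every control, at a log2 difference of 0.31 and p = 0.2 in the exact test, the smallest it can give for 3 against 2. The ratio of Acta1 to Actc1 was 0.0359, 0.0321 and 0.0317 in controls and 0.0302, 0.0280 and 0.0216 in conditional knockouts. The groups do not overlap, the log2 difference was -0.33 (exact permutation test, p = 0.1, the smallest for 3 against 3), and it was -0.43 without conditional knockout replicate 1 (exact p = 0.2, the smallest for 3 against 2). Conditional knockout replicate 1, the lowest library for Actc1 but not for Acta1, was the highest of its group in this ratio. The coding sequences of the 2 actins are nearly identical, so reads assigned between them make this ratio uncertain.

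The ratio of Tnnt1 to Tnnt2 was 0.0849, 0.0975 and 0.0995 in controls and 0.114, 0.0984 and 0.104 in conditional knockouts, a log2 difference of 0.17 (exact permutation test, p = 0.2) that was 0.11 without conditional knockout replicate 1 (exact p = 0.4). Myom2 to Myom1 stood between 0.00288 and 0.00431 in controls and between 0.00229 and 0.00310 in conditional knockouts. The log2 difference was -0.34 (exact permutation test, p = 0.3), and -0.24 without conditional knockout replicate 1 (exact p = 0.6). The last 3 ratios set atrial against ventricular isoforms. Myl7 to Myl2 was 0.537, 0.474 and 0.510 in controls and 0.596, 0.578 and 0.538 in conditional knockouts, a log2 difference of 0.17 (exact permutation test, p = 0.1), and 0.14 without conditional knockout replicate 1 (p = 0.2). The groups do not overlap, but the nearest libraries were 0.5374 and 0.5384. Myl4 to Myl3 was 2.43, 2.44 and 2.55 against 2.34, 2.46 and 2.36, which overlap, with a log2 difference of -0.05 (exact permutation test, p = 0.3), and of -0.04 without that library (exact p = 0.6). Mybphl to Mybpc3 was 0.151, 0.124 and 0.117 against 0.159, 0.147 and 0.127, which overlap, with a log2 difference of 0.14 (exact permutation test, p = 0.4), and of 0.07 without it (exact p = 0.8). The 3 atrial ratios thus differed in sign. After Benjamini-Hochberg adjustment over the 8 ratios, the exact p values lay between 0.32 and 0.4.

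**Figure D4:**
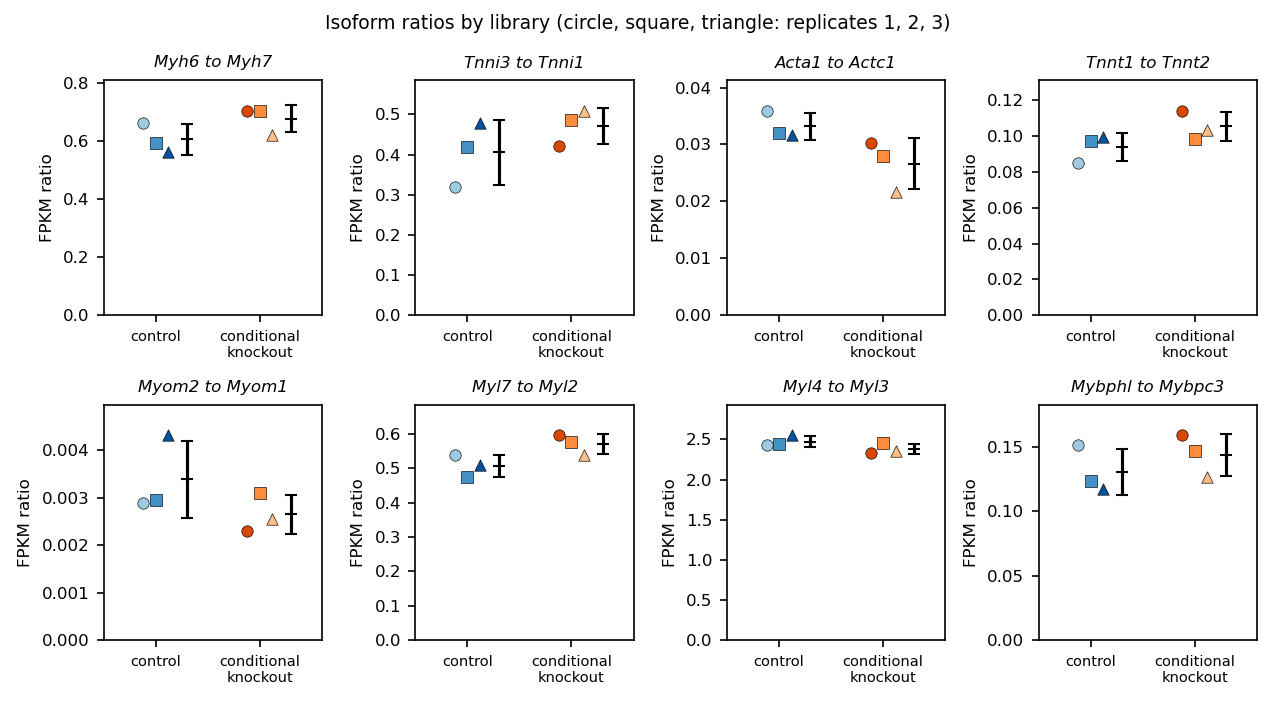
Ratio of FPKM between isoforms in each library (vertical axes from 0), with circles, squares and triangles for replicates 1, 2 and 3 and bars for the mean and SD of 3 libraries. The libraries of both groups separate for Acta1 to Actc1, with 0.0317 the lowest control and 0.0302 the highest conditional knockout, and narrowly for Myl7 to Myl2.

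Sarcomere genes outside the list, and related genes that are not confined to striated muscle, were set beside the members. Of 34 tested genes, 0 passed the adjusted threshold in limma (background 0.177%) and 4 had an unadjusted p under 0.05, all lower (11.8%, background 4.37%). Of their estimates, 31 lay below 0 (91.2%, against 53.2% of all tested genes) and 3 above, with a median of -0.14. With conditional knockout replicate 1 left out, the median was -0.06, with 22 below 0 (64.7%, against 51.6%). The smallest p belonged to Nrap, a scaffold of new myofibrils, at 7.33, 10.9 and 12.7 FPKM against 4.02, 6.27 and 7.26 FPKM. Next came Hspb7, a small heat shock protein of the heart, at 267, 270 and 232 FPKM against 162, 219 and 198 FPKM. Their log2 fold changes were -0.73 ± 0.24 and -0.42 ± 0.14 (SE, limma adjusted p = 0.669 and 0.699), and -0.52 and -0.29 without conditional knockout replicate 1. Myl9 and Myl6, light chains of smooth muscle and non-muscle myosin, had the highest levels of that list. Myl9 stood at 998, 1171 and 1025 FPKM against 728, 1292 and 1001 FPKM. Myl6 stood at 1082, 863 and 871 FPKM against 859, 748 and 724 FPKM. Of 21 paralogs of skeletal muscle, 8 were tested and 0 passed in limma (background 0.177%). In limma 1 of them, Mybpc1, had an unadjusted p under 0.05, with lower values (12.5%, background 4.37%). Their estimates lay below 0 for 3 (37.5%, against 53.2% of all tested genes) and above 0 for 5. Of the serum response factor and Mef2 group, whose sites were counted in the promoters, 7 genes were tested, with a median of -0.12. In limma, 0 of the 7 passed (background 0.177%) and 0 had an unadjusted p under 0.05 (background 6.68%). Myocd, the muscle partner of serum response factor, stood at 13.6, 21.6 and 17.7 FPKM against 9.33, 14.1 and 18.7 FPKM.

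Markers of other cells and of muscle outside the sarcomere were set beside these values. In conditional knockout replicate 1, the 9 markers of cardiomyocytes outside the sarcomere had a median of 81.1% of the control mean (range 75.2% to 109%). In the other 5 libraries the median lay between 97.1% and 113%. Nkx2-5 and Kcnq1, with the smallest p of that list in limma, stood at 78.5% and 80.2% in conditional knockout replicate 1. The mean of replicates 2 and 3 was 73.6% and 90.0% for these genes. Atp2a2 and Pln, the most abundant, stood at 96.9% and 108.8% in replicate 1, and Ryr2 at 81.1%. Estimates lay below 0 for 4 of the 9 (44.4%, against 53.2% of all tested genes) and above 0 for 5. The summed level of the 9 markers was 1079 to 1158 FPKM in controls and 1037 to 1199 FPKM in conditional knockouts, and none was at 0. Summed markers of endothelium (8 of 8 tested) were 198 to 226 FPKM in controls and 150 to 180 FPKM in conditional knockouts. The lowest sum was again in replicate 1. Estimates lay below 0 for 6 of the 8 (75.0%, against 53.2% of all tested genes) and above 0 for Emcn and Cldn5. Cldn5 stood at 276% of the control mean in conditional knockout replicate 1. The 6 smooth muscle markers summed to 996 to 1497 FPKM in controls and to 815 to 1072 FPKM in conditional knockouts. Most of that sum was Acta2, with means of 852 and 673 FPKM. Estimates lay below 0 for 4 of the 6 (66.7%, against 53.2% of all tested genes) and above 0 for 2. Of these 2, Myh11 had a log2 fold change of 0.74 ± 0.26 (SE, limma adjusted p = 0.708), at low levels with overlapping groups. It stood at 138% of the control mean in conditional knockout replicate 1. The 6 tested markers of cushion mesenchyme had their highest median, 129% of the control mean, in conditional knockout replicate 1. Skeletal muscle progenitor markers were low throughout (0 of 7 tested), with sums of 0.437 to 0.814 FPKM in controls and of 4.81, 0.939 and 1.18 FPKM in conditional knockouts. Myog and Myod1, which define that lineage, stood at 2.71 and 1.28 FPKM in conditional knockout replicate 1. Some lists outside the sarcomere had low medians in conditional knockout replicate 1 as well. Epicardial markers (92.4%) and the serum response factor and Mef2 group (91.6%) stood nearer the control mean there, and macrophage markers stood at 144%. The 6 erythroid markers above 0 in controls stood at 63.5% of the control mean there, against 113% and 86.9% in the other conditional knockouts, with 5 of the 6 lowest in that library. Endothelial markers had a median of 73.7% there, against 82.2% and 75.0%, and smooth muscle markers had one of 74.3%, against 88.5% and 77.6%. The summed liver markers ran from 22.9 to 91.0 FPKM in controls and from 2.69 to 248 FPKM in conditional knockouts. The part of these cell types in the values of the sarcomere genes was not tested.

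**Figure D5:**
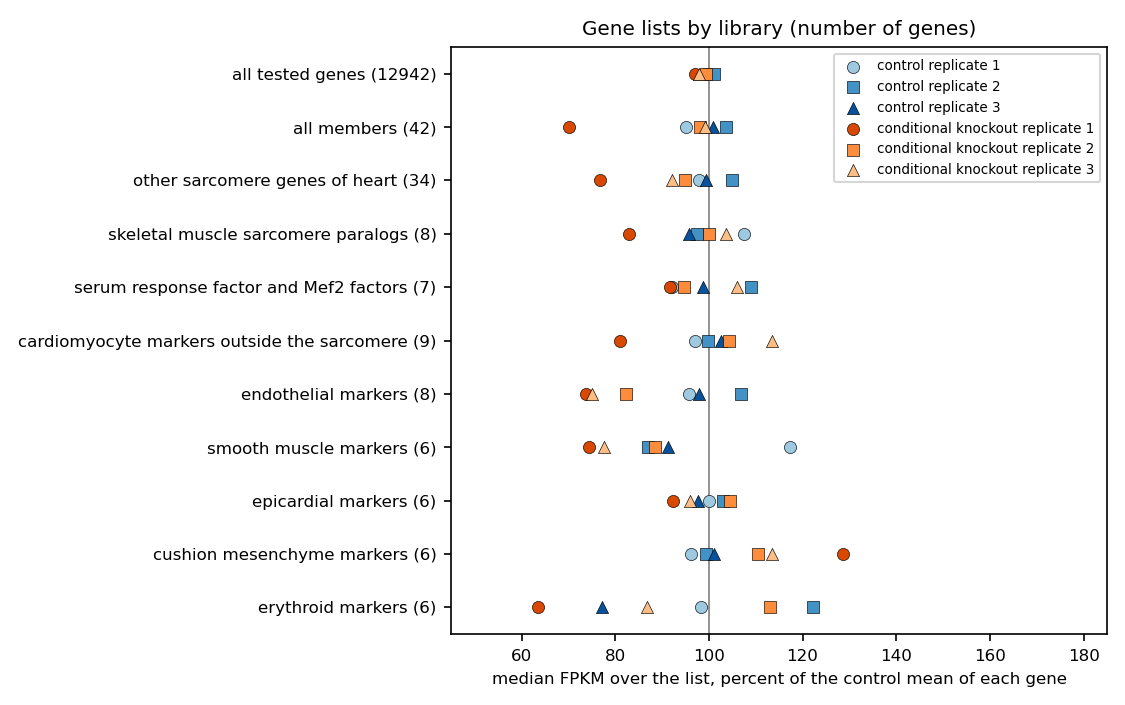
Median FPKM of each gene list in each library (horizontal axis, percent of the control mean of each gene), with the number of genes in brackets, blue symbols for controls and orange symbols for conditional knockouts; genes at 0 in all controls are left out. In conditional knockout replicate 1 the members stand at 70.2%, with erythroid markers at 63.5%, endothelial markers at 73.7%, smooth muscle markers at 74.3% and cardiomyocyte markers outside the sarcomere at 81.1%, while all tested genes stand at 97.0%.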

How the data were processed

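RNA sequencing values of 6 whole-heart libraries were analysed, 3 per genotype. The authors deposited 1 table of FPKM values, with 38918 rows named by Ensembl identifier and symbol. TopHat2 version 2.0.9, Cufflinks version 2.2.1, Cuffdiff, HTSeq and the build mm10 are named, with no role or order, per the submitters' processing notes. Not given in the sources used here are the annotation release, the strand setting and how multi-mapping reads were handled. FPKM divides by a library total, so a few abundant transcripts move all other values. Read counts were not recovered, and among 1582 genes under 0.3 FPKM the ratio of low values between libraries piled up less in pairs with 1 replicate 1 library (1.08% to 1.33% of genes at the modal ratio) and in the pair of both replicate 1 libraries (2.40%) than among replicates 2 and 3 (6.07% to 10.4%).

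Values were analysed as log2(FPKM + 1), computed from the deposited table, over the 12988 genes whose mean reached 1 FPKM. Fold changes subtract control from conditional knockout on this log scale, and those of low genes are understated. The test was limma 3.58.1 (R 4.3.3), with a trend for expression level and without a block, adjusted by Benjamini-Hochberg over all tested genes at a threshold of 0.05, and was tested on simulated data. Ratios and sums were compared with two-sided exact permutation tests, whose smallest p is 0.1 for 3 against 3 libraries and 0.2 for 3 against 2. Errors are SD for FPKM and the moderated SE for fold changes. The members, lists and alternatives were chosen with earlier results of these data known.

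By rule, values in every library were given for the genes of the 8 ratios, the 10 members with the smallest p and the 2 most abundant of each role, and further members were added after their values were seen. Of each other list the rule took the 2 genes with the smallest p and the 2 highest, of which those that bear on a result are named, and Myocd, Ryr2, Myog, Myod1, Tek, Hbb-y and Hba-x were chosen after their values were seen. Positions are from GENCODE M21 on GRCm38, and promoter sequences from RefSeq on GRCm38.p6. Alternatives were another pseudocount, other filters, quantile and median scaling, a replicate block, replicates 2 and 3 alone, and each library left out.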

Additional observations from a re-analysis of the deposited data

How the results depend on the processing

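No member passed the threshold under a pseudocount of 0.1 FPKM, no filter, a minimum mean of 5 FPKM, median centring, replicates 2 and 3 alone, or with any 1 library left out. Quantile normalization gave 1, Myl4 (log2 fold change -0.87, limma adjusted p = 0.0237). With Hbb-y and Hba-x, which are listed at 0 in controls and are among the most abundant transcripts of the conditional knockouts, left out before that scaling, an alternative chosen after seeing the data, the count was 0 and the smallest adjusted p 0.101. The numbers 1 to 3 of the labels matched the libraries only in part. Deviations of same-numbered libraries correlated at 0.189, 0.031 and 0.229 over the tested genes, and those of unlike number at -0.235 to 0.056. Control replicate 2 correlated best with conditional knockout replicate 3 (0.056). With the replicate number as a block, 0 members passed (smallest adjusted p 0.268), 11 had an unadjusted p under 0.05 (26.2%, against 11.9% of all tested genes in that fit), and 17 genes in all passed in place of 23. The median over the members ran from -0.30 to -0.04 with 1 library left out, and the value nearest 0 was that without conditional knockout replicate 1. The difference between groups in the log2 ratio of Tnnt1 to Tnnt2 was 0.0362 in replicates 2 and 3 alone, and that of Myom2 to Myom1 turned from -0.34 to 0.0499 with a pseudocount of 1 FPKM. With 1 library left out, 19 of the 42 estimates crossed 0. Among those printed these were Myh6 (-0.31 to 0.0131), Tnni3 (-0.15 to 0.20), Tnnt1 (-0.25 to 0.26), Tnnt2 (-0.35 to 0.16), Myom1 (-0.32 to 0.0128), Myl7 (-0.14 to 0.21) and Myl2 (-0.30 to 0.0693), and the other 12 (Mylk3, Ttn, Tpm1, Tmod1, Nebl, Pdlim5, Smpx, Fhl2, Ankrd1, Smyd1, Trim55 and Trim63) lay between -0.34 and 0.31. No member passed the test in any of these fits. Tnni3 was also above 0 in replicates 2 and 3 alone (0.0784) and after quantile normalization without Hbb-y and Hba-x (0.00841), and Myl7 was below 0 under quantile normalization with and without them (-0.69 and -0.53). The cause of these moves was not tested. The other printed fold changes, Nrap and Hspb7 included, kept their direction under every alternative run. Read depth is unknown, so no counting limit can be given for Myom2 and Xirp2.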
